A study of Homo sapiens with 6 samples.

Results

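HOX genes encode the homeodomain transcription factors that give cells their position along the body axis, and the ones studied here are those in the HOXA, HOXB, HOXC and HOXD clusters of the human genome. Members were all genes with at least 1 probe set whose only platform symbol was HOXA, HOXB, HOXC or HOXD followed by a number, antisense symbols excluded. Each gene was read from its brightest probe set, by the mean signal of the 6 arrays. This gave 24 of the 11963 genes with such a probe set: 1 gene of HOXA (HOXA2), 9 of HOXB, 7 of HOXC and 7 of HOXD. Of 39 human HOX genes, the other 15 were not analysed here, among them 10 of HOXA, so nothing below describes the HOXA cluster as a whole.

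The labels give the cells as HSC2, an established line from a human squamous carcinoma of the mouth. In the checks below the MALT1 transcript did not bear out the MALT1 label, and luminal breast markers were higher under it. The group labelled MALT1 (3 arrays) was described as cells that stably express full-length wild-type MALT1, a paracaspase of NF-kappaB signalling. The group labelled mock (3 arrays) was described as the same line carrying the vector alone. All cells were grown in serum-containing DMEM with penicillin and streptomycin. The labels name neither the promoter of the construct nor whether each group was a clone or a pool, and they do not say whether the replicates are separate cultures. The p-values thus cover only the spread among these arrays, which could be technical.

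HOX genes lie in each cluster in the order in which they are used along the body, from paralogue 1, which acts towards the head, to paralogue 13, which acts towards the tail. Genes with the same number in different clusters are paralogues with closely related homeodomains. Their proteins bind DNA together with the TALE homeodomain cofactors of the PBX, MEIS and PKNOX families. In adult cells the clusters are held silent by Polycomb proteins and kept active by MLL methyltransferases, so that cells of different origin keep different HOX codes. Cells of head and oral origin are known for a code poor in posterior HOX genes.

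Some facts of all the arrays bear on every value below. Signals up to 17.6 are called dim, since the trp control probe sets, which target a bacterial gene, reached that value on 1 array. That array was replicate 3 labelled MALT1, and on the others the highest trp signal was 6.13 to 14.7. The transcript of MALT1 itself was not raised under the MALT1 label. Its brightest probe set read 175, 194 and 178 on the arrays labelled MALT1, against 248, 253 and 257 on the arrays labelled mock (-0.47 ± 0.09 SE on the log2 scale, adjusted p = 0.0104 by limma). Another read 128, 125 and 107 under the MALT1 label, against 282, 242 and 236 under the mock label (-1.08 ± 0.12 SE, adjusted p = 0.0022). The third read 195, 180 and 164 under the MALT1 label, against 227, 217 and 208 under the mock label, and missed the threshold (-0.28 ± 0.10 SE, adjusted p = 0.0969). On all 3 the groups did not overlap, with the MALT1 label on the lower side. The probe positions were not analysed here, so whether these probe sets read a transcript of the construct is not known. Groups are therefore named by label only, and the arrays may not hold what their labels say. Of 15 luminal breast epithelium markers 14 rose and 0 fell with the MALT1 label, with a summed signal of 81460 to 89650 under that label, against 9052 to 9738 under the mock label. KRT19, TFF1, FOXA1, SPDEF and GREB1 were dim on all arrays labelled mock, and PGR on all 6 arrays. Of 11 squamous epithelium markers, the labelled type, 0 were higher and 10 lower, with a summed signal of 28210 to 31140 under the MALT1 label, against 62070 to 69880 under the mock label. KRT16 was dim on all arrays labelled MALT1, and the other 10 were above the dim level on all 6 arrays. Of 10 fibroblast, 8 leukocyte and 8 endothelial markers, 0, 1 and 0 were higher and 1, 0 and 0 lower. The part of these differences in the HOX results was not tested. In bulk samples, fewer cells of a type and less RNA per cell cannot be told apart. Replicate 3 labelled MALT1 stood apart in its dim signals, which made up 25.6% of its probe sets, against 31.7% to 33.3% for each of the others. Its ACTB control also had the highest ratio of 3′ to 5′ signal, 4.46, against 3.59 to 3.98 on the others. The same ratio of the GAPDH control was 0.95 to 1.12 over the 6 arrays.

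Of the 24 HOX genes, 11 were above the dim level on all 6 arrays, 6 on some arrays and 7 on none (29.2% dim on all 6 arrays, against 13.9% of all genes). On single arrays 12, 12 and 13 HOX genes were above it on the arrays labelled MALT1 and 15, 16 and 15 on the arrays labelled mock.

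**Figure D1:**
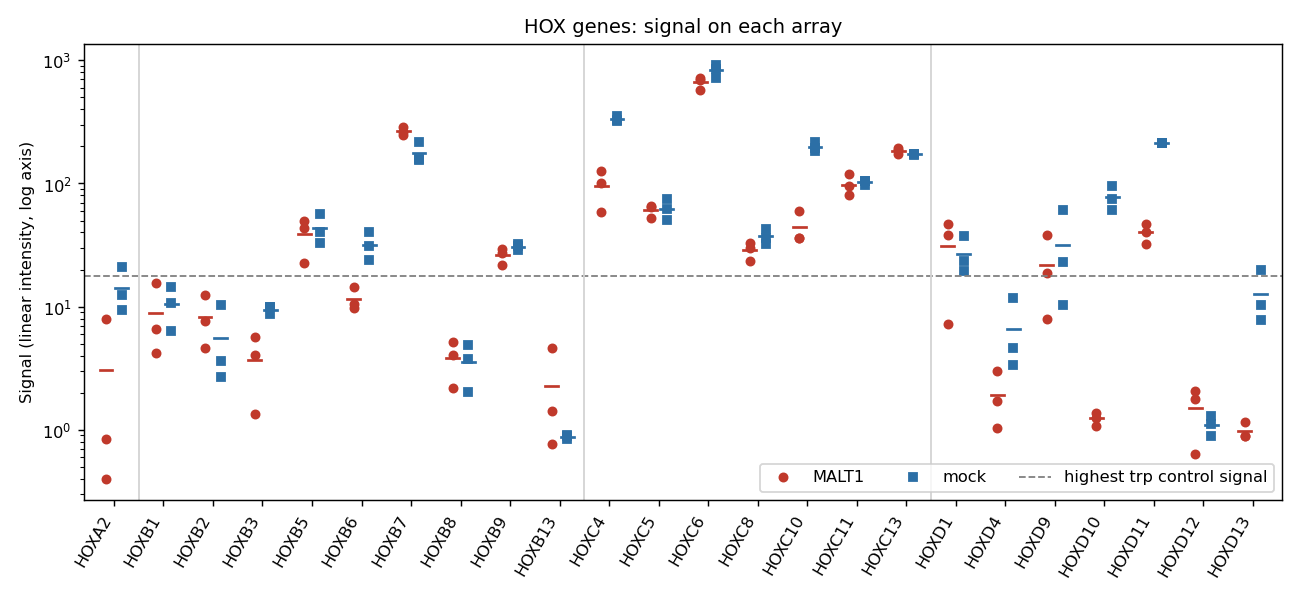
Signal of the 24 HOX genes (linear intensity, log axis) on the 3 arrays labelled MALT1 (circles, left of each pair) and the 3 labelled mock (squares), with the mean of each group as a bar and the dim level of 17.6 as a dashed line. In HOXB6, HOXC4, HOXC6, HOXC10, HOXD10 and HOXD11 every square is above the dashed line and every circle lies below every square. In HOXC6 the closest circle and square are at 721 and 723.

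More HOX genes were lower than higher on the arrays labelled MALT1. In limma's fit over all 22215 probe sets, 6 of 24 were lower at an adjusted p under 0.05 (25.0%, where 19.2% of all genes were lower) and 1 was higher (4.17%, where 21.1% of all genes were higher). The share lower was thus near that of all genes, and the share higher below it. All 6 that fell, HOXB6, HOXC4, HOXC10, HOXD10, HOXD11 and HOXD13, had fitted log2 fold changes of -1 or below (25.0%, against 9.64% of all genes), although HOXB6 has a bound of only 1.77-fold and HOXD13 no measured fold. That count was 4 with a pseudocount of 16, and 5 with probe sets averaged or with x_at and s_at probe sets left out. It was 7 with a mean-variance trend in the fit, with the replicate number as a block, and without MALT1 replicate 1 or 2. The 1 that rose was HOXB7. The groups did not overlap in 12 HOX genes, with all arrays labelled MALT1 below in 10 (41.7%, against 25.6% of all genes) and above in 2 (8.33%, against 29% of all genes). Among those 10, HOXB3 and HOXD4 were dim on all 6 arrays, and HOXA2 and HOXD13 were above the dim level on 1 array each. HOXC6, also among them, was parted only by 721 against 723. The median log2 fold change was -0.33 over the HOX genes and 0.08 over all genes. With dim genes set at their bound, and at 0 where both groups were dim, the HOX median was -0.05, and that of all genes 0.00.

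**Figure D2:**
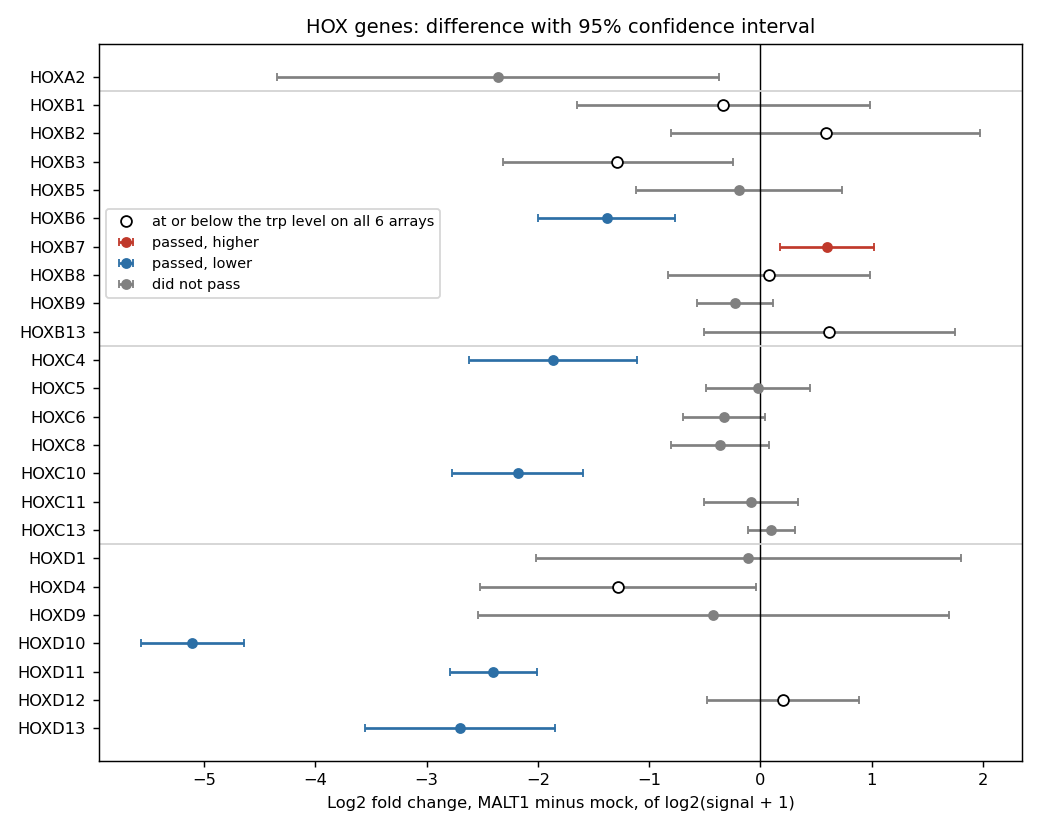
Log2 fold change (arrays labelled MALT1 minus arrays labelled mock, of log2(signal + 1)) of the 24 HOX genes with 95% confidence intervals from limma, by cluster and paralogue number from top to bottom. HOXD10 lies farthest to the left at -5.10, the 6 genes that passed lower are in blue, HOXB7 at 0.60 is in red, and open circles mark the 7 genes that were dim on all 6 arrays.

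In the HOXD cluster 3 of 7 genes were lower (42.9%, against 19.2% of all genes). They made up 3 of the 6 HOX genes that fell and lay neighbouring or nearly so at the cluster's posterior end. This end of the cluster patterns limbs and digits, the genitals and the trunk's tail end. HOXD10, whose transcript is a known target of miR-10b in breast cancer cells, read 1.08, 1.38 and 1.25 on the arrays labelled MALT1, against 95.5, 61.4 and 74.2 on the arrays labelled mock. It was dim on each array of the first group and above the dim level on each of the second, at least 4.30-fold lower on the arrays labelled MALT1 (adjusted p = 8e-05 by limma). The fitted log2 fold change of -5.10 ± 0.18 (SE) rests on signals below the dim level and is no measured size.

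HOXD11, the next gene in the row, needed with its paralogues for forearm and kidney development in mice, was measured in both groups. Its signals were 47.1, 32.4 and 40.4 on the arrays labelled MALT1, against 215, 212 and 212 on the arrays labelled mock. The means were 39.99 ± 7.36 under the MALT1 label and 213 ± 1.98 under the mock label (SD, n = 3 each), a 5.27-fold lower signal on the arrays labelled MALT1 (log2 fold change -2.40 ± 0.15 SE, adjusted p = 0.00033 by limma). Both groups stood above the dim level on all arrays, with a gap between them far wider than either group's spread.

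Of the 24 HOX genes, 10 had an entry in the RefSeq promoter table. The promoters of these 2 neighbours are shown because the genes lie side by side and fell together. Each line holds the 250 bases before the annotated start, 5′ to 3′ on the plus strand, from RefSeq on GRCh38.p14, with every match to a searched motif in capitals.
HOXD11, chr2:176107030-176107279: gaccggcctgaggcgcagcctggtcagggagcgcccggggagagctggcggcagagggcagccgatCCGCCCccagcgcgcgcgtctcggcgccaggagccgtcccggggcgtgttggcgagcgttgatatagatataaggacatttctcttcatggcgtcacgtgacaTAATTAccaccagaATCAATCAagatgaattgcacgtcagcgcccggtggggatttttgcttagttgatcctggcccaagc
HOXD10, chr2:176116528-176116777: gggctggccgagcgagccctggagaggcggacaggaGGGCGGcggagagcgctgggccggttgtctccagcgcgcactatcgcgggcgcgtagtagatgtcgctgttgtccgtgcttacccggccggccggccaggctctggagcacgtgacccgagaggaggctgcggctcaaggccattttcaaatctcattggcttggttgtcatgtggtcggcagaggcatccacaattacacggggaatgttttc
Both windows were rich in GC (61.6% for HOXD11 and 64% for HOXD10, against a median of 58.0% over all promoters) and in CpG (23 each, against a median of 11). The motifs, searched on both strands, were the TATA box TATAAA, the homeodomain core TAATTA, the PBX-HOX site TGATTNAT, the GC box GGGCGG and the NF-kappaB consensus. The HOXD11 window held 1 homeodomain core (found in 4.35% of 35093 promoters), 1 PBX-HOX site (2.48%) and 1 GC box (42.6%), which did not overlap. The HOXD10 window held 1 GC box and no other searched motif. A match is a run of letters and not a site shown to be bound.

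HOXD13, the last gene of the cluster, mutated in human synpolydactyly, also passed but lies at the edge of what the arrays measure. Its brighter probe set read 0.882, 0.886 and 1.15 on the arrays labelled MALT1, against 10.3, 7.82 and 19.9 on the arrays labelled mock, so that only 1 array of the 6 was above the dim level. The groups did not overlap (adjusted p = 0.00292 by limma), and no fold is given because 2 of 3 arrays labelled mock were dim as well. Its other probe set was dim on all 6 arrays, at 2.03 to 2.58 under the MALT1 label and 5.32 to 8.49 under the mock label. HOXD12, between HOXD13 and HOXD11, was dim on all 6 arrays, at 0.632 to 2.07 under the MALT1 label and 0.897 to 1.29 under the mock label.

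The other HOXD genes did not pass. HOXD9, the next gene after HOXD10, scattered within each group, with 7.89, 18.8 and 38.1 on the arrays labelled MALT1 and 22.9, 61.2 and 10.2 on the arrays labelled mock. Its 95% confidence interval on the log2 scale ran from -2.54 to 1.69, which still holds a difference as large as that of HOXD11. HOXD1, the most anterior gene of the cluster, read 47.2, 7.19 and 38.1 on the arrays labelled MALT1, against 23.6, 37.6 and 19.4 on the arrays labelled mock, with overlap (interval -2.02 to 1.80). HOXD4 was dim on all arrays, at 1.03 to 2.98 under the MALT1 label and 3.38 to 11.9 under the mock label. The 3 probe sets that name HOXD3 and HOXD4 together fell outside the rule and never read above 6.64.

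The HOXC cluster was the best measured, with all 7 genes above the dim level on all 6 arrays, and 2 of the 7 fell (28.6%, against 19.2% of all genes). HOXC10, which helps to specify lumbar motor neurons in mice, read 36.0, 36.2 and 59.9 on the arrays labelled MALT1, against 182, 217 and 195 on the arrays labelled mock. The means were 44.0 ± 13.7 under the MALT1 label and 198 ± 17.8 under the mock label (SD, n = 3 each), a 4.54-fold lower signal on the arrays labelled MALT1 (log2 fold change -2.18 ± 0.23 SE, adjusted p = 0.00167 by limma). HOXC10 and HOXD10, the 2 measured members of paralogue group 10, thus both fell.

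HOXC4, expressed in lymphoid and epidermal cells, read 58.6, 101 and 127 on the arrays labelled MALT1, against 322, 328 and 352 on the arrays labelled mock. The means were 95.3 ± 34.3 under the MALT1 label and 334 ± 16.03 under the mock label (SD, n = 3 each), a 3.65-fold lower signal on the arrays labelled MALT1 (log2 fold change -1.87 ± 0.30 SE, adjusted p = 0.00676 by limma). The 3 arrays labelled MALT1 spread more widely than those labelled mock, but none came near the lowest of them.

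The window before the annotated HOXC4 start is shown because RefSeq gives HOXC5 the same window, while only HOXC4 passed the test.
HOXC4, chr12:54016638-54016887: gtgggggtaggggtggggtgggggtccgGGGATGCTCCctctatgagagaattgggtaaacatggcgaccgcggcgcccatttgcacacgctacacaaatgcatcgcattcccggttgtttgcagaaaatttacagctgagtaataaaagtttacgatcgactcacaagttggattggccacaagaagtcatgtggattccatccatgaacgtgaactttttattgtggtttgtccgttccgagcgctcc
It is the plus strand of GRCh38.p14, 5′ to 3′, with motif matches in capitals as above. Its 1 match was to the NF-kappaB consensus, which 9.95% of promoters held, and its GC content was 50.8%. HOXC5 read 52.9, 66.0 and 64.2 on the arrays labelled MALT1, against 50.4, 75.4 and 61.7 on the arrays labelled mock (-0.02 ± 0.18 SE on the log2 scale, 95% confidence interval -0.49 to 0.45, adjusted p = 0.948 by limma). The groups overlapped, and the interval of HOXC5 did not reach the value of HOXC4, although the difference between the 2 genes was not itself tested. The probe positions were not analysed here, so which HOXC4 transcripts its probe set reads is not known.

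The remaining HOXC genes did not pass, and their intervals bound how far they could have moved. HOXC13, a regulator of hair keratins whose mutation causes a hair and nail dysplasia, read 174, 189 and 193 on the arrays labelled MALT1, against 174, 173 and 171 on the arrays labelled mock. Its interval ran from -0.12 to 0.31 on the log2 scale, the narrowest among the HOX genes. The groups did not overlap, yet the lowest array labelled MALT1 (173.8) and the highest labelled mock (173.7) were nearly equal. HOXC11, a paralogue of HOXD11, read 94.8, 80.0 and 119 on the arrays labelled MALT1, against 104, 97.2 and 106 on the arrays labelled mock (interval -0.50 to 0.34).

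HOXC6, active in mammary and prostate epithelium, read 574, 690 and 721 on the arrays labelled MALT1, against 847, 922 and 723 on the arrays labelled mock. All of the first group lay below the second, by a margin of 721 to 723 at the closest, and the difference missed the threshold (log2 fold change -0.33 ± 0.15 SE, adjusted p = 0.155 by limma). It passed with each array centred on its median (adjusted p = 0.0461) and with a mean-variance trend in the fit (adjusted p = 0.0345). HOXC8, a gene of thoracic identity, read 32.6, 23.5 and 30.0 on the arrays labelled MALT1, against 43.0, 35.9 and 32.4 on the arrays labelled mock, with overlap (interval -0.81 to 0.08).

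In the HOXB cluster 1 of 9 genes was higher and 1 lower (11.1% each, against 21.1% higher and 19.2% lower of all genes). Neither call held under every processing tried. HOXB7, which is often raised in breast carcinoma and drives mesenchymal change when forced in mammary epithelial cells, read 260, 249 and 286 on the arrays labelled MALT1, against 159, 217 and 154 on the arrays labelled mock. The means were 265 ± 19.1 under the MALT1 label and 177 ± 35.2 under the mock label (SD, n = 3 each), a 1.51-fold higher signal on the arrays labelled MALT1 (log2 fold change 0.60 ± 0.17 SE, adjusted p = 0.042 by limma). Its other probe sets passed too, by 0.62 ± 0.10 (adjusted p = 0.00723) and 0.86 ± 0.23 (adjusted p = 0.0394) on the log2 scale. The groups did not overlap on any of the 3, all of them x_at or s_at probe sets, which can bind several transcripts. On the brightest probe set the call was lost after median centring (adjusted p = 0.0777), and without MALT1 replicate 1, 2 or 3 or mock replicate 1 or 3 (adjusted p = 0.102, 0.0853, 0.108, 0.124 and 0.115 by limma).

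HOXB6, next to HOXB7 in the cluster and known for its expression in erythroid progenitors, fell on the brighter of its 2 probe sets. That probe set read 10.4, 9.76 and 14.3 on the arrays labelled MALT1, against 31.1, 24.0 and 40.5 on the arrays labelled mock, at least 1.77-fold lower on the arrays labelled MALT1 (adjusted p = 0.00936 by limma). The other probe set was at 7.28, 9.42 and 18.4 on the arrays labelled MALT1, against 7.90, 10.1 and 15.8 on the arrays labelled mock, so that it was above the dim level on 1 of 6 arrays and gives no measured difference. With both probe sets averaged the gene did not pass (log2 fold change -0.69, adjusted p = 0.138 by limma). The one that fell is an s_at probe set, which can bind several transcripts.

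HOXB5, involved in enteric neural crest, read 49.9, 22.7 and 43.7 on the arrays labelled MALT1, against 40.3, 56.3 and 33.1 on the arrays labelled mock, with overlap (95% confidence interval -1.12 to 0.73 on the log2 scale). Its other probe set read 23.1, 33.0 and 41.2 on the arrays labelled MALT1, against 45.4, 53.9 and 44.2 on the arrays labelled mock, without overlap, and missed the threshold as well (adjusted p = 0.12 by limma). HOXB9, a gene of rib and mammary development in mice, read 21.9, 27.1 and 29.2 on the arrays labelled MALT1, against 28.7, 31.2 and 31.95 on the arrays labelled mock. These overlapped, and the difference missed the threshold (log2 fold change -0.23, adjusted p = 0.259 by limma), although it passed after quantile normalization (adjusted p = 0.0393). The hindbrain genes HOXB1, HOXB2 and HOXB3, together with HOXB8 and the prostate lineage gene HOXB13, were dim on all 6 arrays. Their signals lay between 0.765 and 15.6 under the MALT1 label and between 0.844 and 14.3 under the mock label.

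HOXA2, which patterns the second pharyngeal arch and so the middle and outer ear, was the only HOXA gene analysed here. It read 0.396, 7.86 and 0.843 on the arrays labelled MALT1, against 9.43, 20.8 and 12.5 on the arrays labelled mock. All arrays labelled MALT1 lay below all labelled mock, but 5 of 6 arrays were dim and the difference did not pass (adjusted p = 0.0721 by limma).

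Above the dim level on all 6 arrays were 6 of 14 genes of paralogue groups 1 to 8 and 5 of 10 of groups 9 to 13. Posterior HOX genes were thus not absent from these arrays. By paralogue number the calls ran along the clusters as follows. Of 14 genes of paralogue groups 1 to 8, 1 was higher (7.14%) and 2 were lower (14.3%), and of 10 genes of groups 9 to 13, 0 were higher and 4 lower (40%), where 21.1% of all genes were higher and 19.2% lower. The median fitted log2 fold change was -0.33 in both, and with dim genes at their bound it was -0.01 for groups 1 to 8 and -0.16 for groups 9 to 13. Within paralogue groups the calls were not always alike. In group 11 HOXD11 fell and HOXC11 did not pass, both above the dim level on all 6 arrays. In group 13 HOXD13 fell, above the dim level on only 1 array, and HOXC13 did not pass. In group 4 HOXC4 fell, while HOXD4 was dim on all 6 arrays and gives no measured difference. These differences between genes were not tested.

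The partners and regulators of HOX genes moved in both directions, at shares that can be read against 21.1% higher and 19.2% lower of all genes. Of 6 measured TALE cofactors, 3 were higher, 1 lower and 2 did not pass, with a median log2 fold change of 0.47. PBX3 averaged 480 ± 33.6 on the arrays labelled MALT1 and 235 ± 15.9 on the arrays labelled mock (1.03 ± 0.10 SE on the log2 scale, adjusted p = 0.00137 by limma). PBX2 rose by 1.25 and MEIS2 by 0.61 on the log2 scale, and PKNOX1, which pairs with PBX proteins, fell by 0.79. MEIS2 was near the threshold (adjusted p = 0.0494).

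Of 19 Polycomb genes, 7 were higher, 1 lower and 11 did not pass (median log2 fold change 0.23, or 0.06 with dim genes at their bound). PCGF2, a homologue of the Polycomb protein BMI1, averaged 1084 ± 56.0 on the arrays labelled MALT1 and 452 ± 16.7 on the arrays labelled mock (1.26 ± 0.09 SE on the log2 scale, adjusted p = 0.00042 by limma). CBX6, a reader of methylated histone H3, rose by 1.21, and the histone chaperones RBBP4 and RBBP7 rose by 0.96 and 0.77 on the log2 scale. EED, a core subunit of the H3K27 methyltransferase, fell by 0.27. The catalytic subunit EZH2 averaged 853 ± 92.2 on the arrays labelled MALT1 and 914 ± 117 on the arrays labelled mock, and SUZ12 averaged 2192 ± 29.7 under the MALT1 label and 2158 ± 70.3 under the mock label. Neither passed.

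Of 10 genes of MLL complexes and H3K27 demethylases, 2 were higher, 2 lower and 6 did not pass (median log2 fold change 0.01). PSIP1, the chromatin tether of MLL and menin, fell by 0.98, and ASH2L, a core subunit of the complexes, by 0.74 on the log2 scale. The demethylase KDM6B rose by 0.69 and RBBP5 by 0.45. KMT2A, the MLL methyltransferase itself, averaged 300.0 ± 32.5 on the arrays labelled MALT1 and 308 ± 19.5 on the arrays labelled mock and did not pass.

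Of 14 upstream regulators, 3 were higher, 1 lower and 10 did not pass (median log2 fold change 0.15, or 0.04 with dim genes at their bound). CTCF, which sets domain borders inside HOX clusters, averaged 1568 ± 88.1 on the arrays labelled MALT1 and 1049 ± 25.6 on the arrays labelled mock (0.58 ± 0.09 SE on the log2 scale, adjusted p = 0.00541 by limma). GMNN, an inhibitor of replication licensing that also binds HOX proteins, rose by 0.58, and the cohesin subunit SMC3 fell by 0.72 on the log2 scale. The retinoic acid receptor RARG averaged 33.2 ± 4.58 on the arrays labelled MALT1 and 11.7 ± 7.32 on the arrays labelled mock (adjusted p = 0.0399 by limma). RARG was above the dim level on all 3 arrays labelled MALT1 but on only 1 labelled mock. CDX2 and CDX4, which switch on HOX genes in the embryo, were dim on all 6 arrays.

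**Figure D3:**
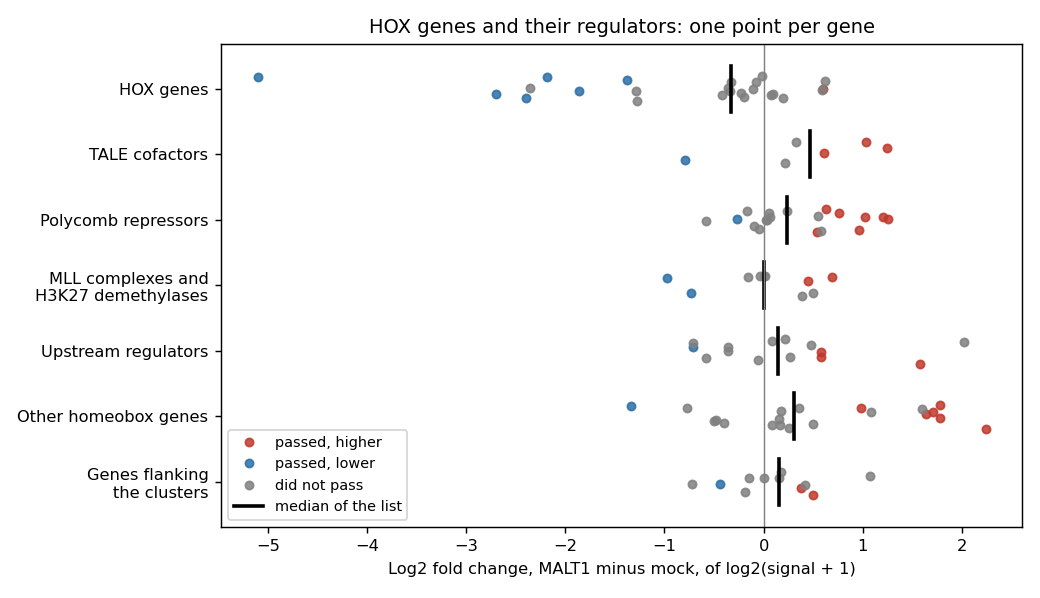
Log2 fold change (arrays labelled MALT1 minus arrays labelled mock) of each gene with a probe set in 7 lists, dim genes included, 1 point per gene, coloured by whether it passed at an adjusted p under 0.05, with the list's median as a black bar. The HOX genes reach farther to the left than the other lists, with a median of -0.33, whereas the medians of the other lists lie between 0.01 and 0.47. With dim genes at their bound, which is not drawn, the HOX median was -0.05 and the others lay between 0.00 and 0.47.

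Homeobox genes outside the clusters moved in both directions. Of 20 such genes of the Antennapedia class, 6 were higher (30.0%, against 21.1% of all genes) and 1 lower (5.0%, against 19.2%), with 13 not passing, and 10 had no signal above the dim level on any array, MEOX2 and BARX1 among those called higher. MSX2, a factor of tooth, skull and mammary development, averaged 352 ± 9.69 on the arrays labelled MALT1 and 102 ± 2.31 on the arrays labelled mock (1.78 ± 0.08 SE on the log2 scale, adjusted p = 0.00012 by limma). MNX1 rose by 1.64 on the log2 scale, EN2 was at least 2.74-fold higher on the arrays labelled MALT1, and DLX2, a factor of the oral jaw region, fell by 1.33 on the log2 scale.

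Of 11 genes flanking the clusters, 2 were higher (18.2%, against 21.1% of all genes) and 1 lower (9.09%, against 19.2%). The other 8 did not pass, 3 of these dim on all 6 arrays. None of those that passed reached 2-fold. ATP5MC3, near HOXD, rose by 0.50 and SMUG1, by the HOXC4 end of its cluster, by 0.38 on the log2 scale. SKAP2, beside HOXA, fell by 0.44. MTX2, the next protein-coding gene beyond HOXD1, averaged 1185 ± 8.11 on the arrays labelled MALT1 and 1179 ± 30.6 on the arrays labelled mock (0.01 ± 0.08 SE on the log2 scale, adjusted p = 0.955 by limma). CALCOCO1, which adjoins HOXC13, averaged 52.9 ± 17.5 on the arrays labelled MALT1 and 38.0 ± 1.15 on the arrays labelled mock and did not pass. SKAP1, beside HOXB1, was dim on all 6 arrays. The HOX antisense RNAs were not analysed here.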

How the data were processed

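Gene expression was measured on 6 single-colour Affymetrix arrays, 3 labelled MALT1 and 3 labelled mock, from biotin-labelled RNA, per the labels' protocols. The values deposited by the authors are linear intensity values, 1 per probe set and already summarised over probes; the software and its settings are not given in the sources used here. To judge by the numbers, each array had been scaled to a trimmed mean of 500.1 to 500.2. They hold no detection calls, and the number of arrays limits the precision.

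All 22215 probe sets other than the 62 controls entered the test, with no filter, as log2(signal + 1), which makes folds of low genes smaller. Of these, 19064 had 1 gene symbol in the platform annotation, 1043 several and 2108 none. limma 3.58.1 in R 4.3.3 (lmFit, eBayes; group as the only term) gave two-sided p-values. These were adjusted after Benjamini and Hochberg across the 22215 probe sets, and the threshold was 0.05. The direction is MALT1 minus mock. The fit was tested on simulated data. A bound, written as at least, divides the brighter group's geometric mean by 17.6, a dim level that follows an earlier look at these data. Of the 24 HOX genes, 18 have 1 probe set, and 9 were read from an x_at or s_at probe set.

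Per-array values are given for HOX genes that passed with any array above 17.6 and for those above it on all 6 arrays; others named are examples chosen after their values were seen. Of other lists, the 4 with the lowest adjusted p above the dim level are named at most, and EZH2, SUZ12, EED, KMT2A, CDX2, CDX4, MEOX2, BARX1, MTX2, CALCOCO1 and SKAP1 were added after their values were seen. Alternatives covered scaling, pseudocount, dim probe sets, probe set choice, the variance trend, a replicate block and leaving out each array. The members and lists were chosen with earlier results of these data known.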

Additional observations from a re-analysis of the deposited data

How the results depend on the processing

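HOXC4, HOXC10, HOXD10, HOXD11 and HOXD13 kept their direction and their call under every alternative in which they were tested. For HOXD13 the calls rest on 2 probe sets, 1 of them above 17.6 on 1 of 6 arrays and the other dim on all 6. The count of lower HOX genes was 5 to 8 under the alternatives, except with the dimmer probe sets left out, where 3 of only 7 HOX genes tested were lower and 3 passed with at least a 2-fold change. The count of higher HOX genes, HOXB7 alone, was 0 after median centring, with the replicate block, and with x_at and s_at probe sets left out (which removes HOXB7), and 0 to 1 with 1 array left out. Over all probe sets 7917 were called, against 5808 with the replicate block, under which HOXB7 missed the threshold (adjusted p = 0.117 by limma). Deviations of same-numbered arrays of the 2 groups correlated at 0.0439, 0.00749 and 0.0451, against -0.0619 to 0.0352 for arrays of unlike number. Correlations this small cannot show whether the samples were paired. Among genes that had not passed, the direction turned for HOXB5 (-0.41 to 0.143 with 1 array left out, above 0 without MALT1 replicate 2 or mock replicate 2), HOXC11 (-0.231 to 0.054, above 0 without MALT1 replicate 2), HOXC5 (-0.164 to 0.122, above 0 without MALT1 replicate 1 or mock replicate 2) and HOXC13 (-0.031 after median centring). HOXB6 stood at 0.004 with x_at and s_at probe sets left out, on a probe set above 17.6 on 1 of 6 arrays. The causes were not tested. Dim signal limits the rest: 7 of 24 HOX genes were not above 17.6 on any array.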
